A study of Mus musculus with 9 samples.

Results

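Antigen receptors of T and B cells have no enzyme activity of their own and pass their signal through a relay of kinases and adaptors. Lck, a Src family kinase, phosphorylates the receptor tails, and the paired-SH2 kinases Zap70 (in T cells) and Syk (in B cells and many other cells) dock there. These kinases then phosphorylate scaffolds, Lat and Lcp2 in T cells and Blnk in B cells, on which phospholipase C gamma, Vav exchange factors and the calcium and NF-kB branches assemble. Cd276 encodes B7-H3, a ligand of the B7 family on the surface of many tissues that regulates T cells. Ptprc encodes the pan-leukocyte phosphatase CD45 and Cd3e a chain of the T cell receptor complex, and both served as a check on leukocyte RNA. The transcripts of these 9 genes, of 23955 in the count table, are described here in gut epithelial organoids. They were chosen by their levels in these same libraries (adenoma set against MIN, and sulindac-treated against untreated adenoma), so all values of the 9 genes below are a description and carry no test.

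RNA-seq counts came from 3 groups of 3 organoid samples, all from Apc min/+ mice, which carry 1 mutated copy of the tumor suppressor Apc. MIN organoids were grown from the normal gut tissue beside the adenomas and adenoma organoids from the adenomas themselves. Sulindac organoids were adenoma organoids exposed to sulindac, a non-steroidal anti-inflammatory drug that inhibits cyclooxygenases. All cultures received Noggin, EGF, bFGF, R-spondin1 and B27, so the Wnt agonist R-spondin was present in every group. The labels give no age, no dose or time of sulindac, no vehicle and no animal of origin, and where the cultures do not come from separate animals the p-values below measure only the spread between these samples. No sulindac-treated MIN organoids were analysed here.

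The libraries held 30881206 to 48412477 counts, with 5.15% to 7.48% of them in the 10 most abundant genes. Levels are given as CPM, the usual unit of counts scaled to library size, here with TMM factors, and 3 counts, the floor of what a library can show, lie between 0.0641 and 0.10 CPM. Floors and counting intervals cover counting error only. All 9 epithelial markers were expressed in every group, with a summed level in CPM of 6410 to 9070 in MIN, 3870 to 5020 in adenoma and 5150 to 6180 after sulindac. In bulk samples a smaller share of expressing cells and less RNA per cell cannot be told apart.

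The 9 genes did not share a pattern, and a common description as lymphocyte signalling genes expressed in adenoma epithelium held for some of them. Zap70, Blnk and Cd276 were higher in adenoma than in MIN. Lck was expressed in adenoma but at a lower level than in MIN, and Syk, with 487 to 791 counts in MIN, was at 0 to 2 counts in adenoma. Lat, Lcp2, Ptprc and Cd3e stayed at or near the floor. Of the 9, 5 passed the low-count filter between adenoma and MIN, and 3 of these were higher and 2 lower at a false discovery rate (FDR) of 1%. Over all 13744 genes tested the shares were 18.5% higher and 20.1% lower, and nothing is read from this, since the same contrast chose the genes. Between sulindac-treated and untreated adenoma 4 passed the filter, of which 4 were lower and 0 higher, against 9.10% lower and 8.32% higher over all 12962 genes. Zap70 passed that filter through its adenoma level. This contrast chose the genes too, so nothing is read from this count either. Between sulindac-treated adenoma and MIN 2 of 4 were lower and 0 higher, against 26.8% lower and 23.0% higher over all 13551 genes. Both groups belong to the contrasts that chose the genes, so this count is a description as well. These comparisons share libraries and are not independent of each other.

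**Figure D1:**
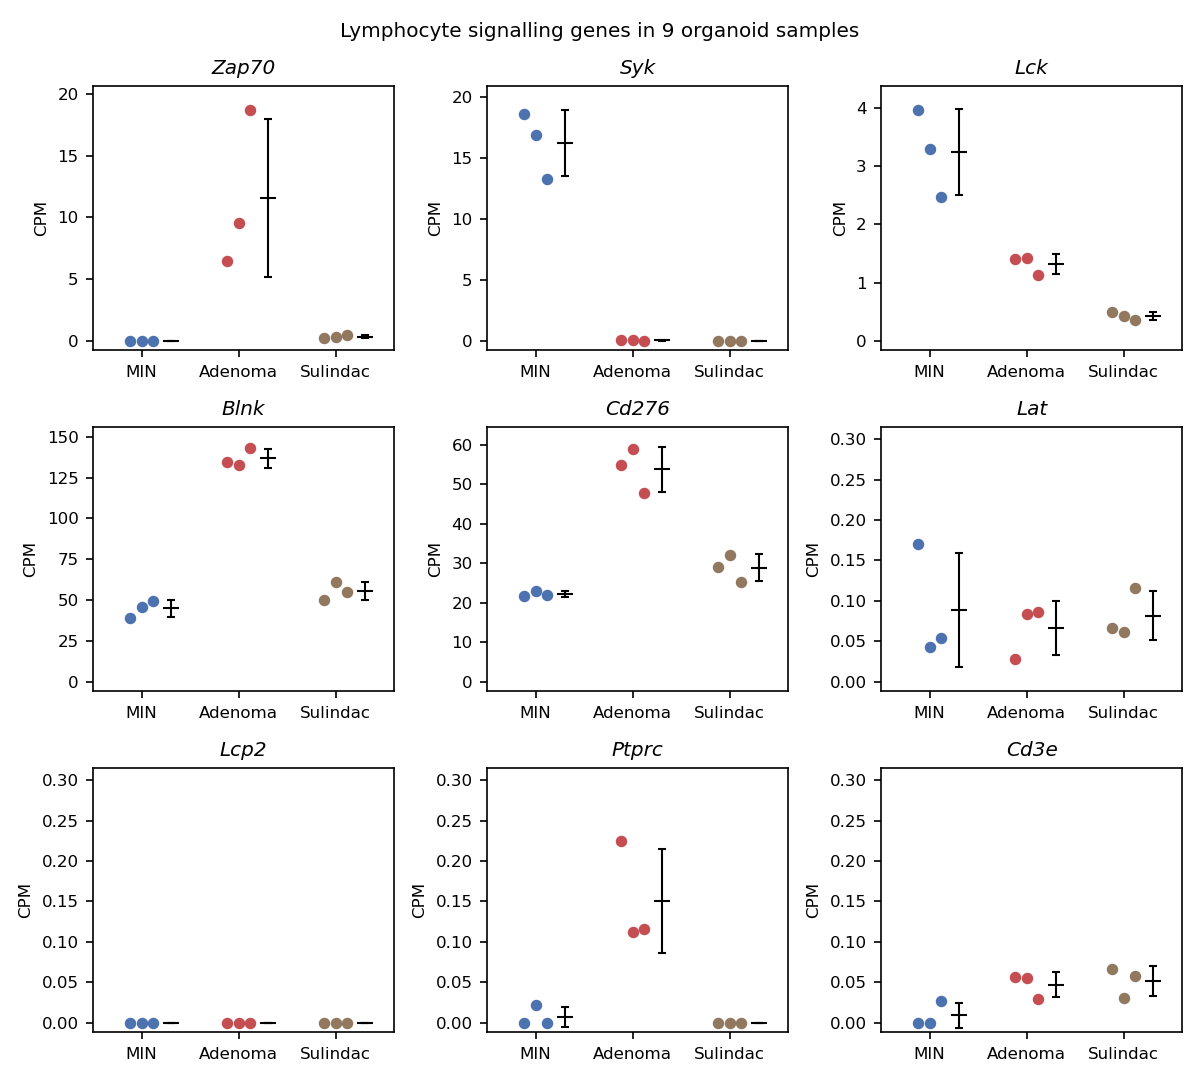
Level of each of the 9 genes (CPM, linear axis, own scale per panel) in the 3 MIN, 3 adenoma and 3 sulindac samples, with each point a sample and the bar the mean and SD of the group. Zap70, Blnk and Cd276 stand highest in adenoma, Syk is seen in MIN, Lck steps down from MIN to adenoma to sulindac, and the 4 remaining genes reach at most 0.225 CPM.

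The sequences just upstream of the transcription starts are shown for the kinases Zap70 and Syk and for the adaptor and the B7 ligand that moved with Zap70. RefSeq lists 14 starts for the 9 genes on GRCm38.p6, and the 250 bases before each were searched on both strands for the TCF/LEF core CTTTGA (the site of the Wnt pathway's factors) and the ETS core GGAAGT. The printed windows are the outermost start of Zap70 at chr1:36761548-36761797 (plus strand), that of Syk at chr13:52583187-52583436 (plus strand), Blnk at chr19:40994222-40994471 (minus strand) and Cd276 at chr9:58555034-58555283 (minus strand). Each runs 5′ to 3′ towards the start, and capitals mark a motif.

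Zap70: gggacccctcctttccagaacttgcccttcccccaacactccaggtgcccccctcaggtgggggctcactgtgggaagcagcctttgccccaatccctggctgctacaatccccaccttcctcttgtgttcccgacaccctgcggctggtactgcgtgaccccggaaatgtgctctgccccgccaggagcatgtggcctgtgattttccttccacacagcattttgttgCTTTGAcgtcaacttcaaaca

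Syk: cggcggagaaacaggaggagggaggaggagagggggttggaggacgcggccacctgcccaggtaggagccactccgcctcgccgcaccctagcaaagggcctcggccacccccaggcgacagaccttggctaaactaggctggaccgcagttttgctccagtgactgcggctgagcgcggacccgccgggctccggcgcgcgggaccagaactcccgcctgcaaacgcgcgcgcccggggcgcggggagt

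Blnk: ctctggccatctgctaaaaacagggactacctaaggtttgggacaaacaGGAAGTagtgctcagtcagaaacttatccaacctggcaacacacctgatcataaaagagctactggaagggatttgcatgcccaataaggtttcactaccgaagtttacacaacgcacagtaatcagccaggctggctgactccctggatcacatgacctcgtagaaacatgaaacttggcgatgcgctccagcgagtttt

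Cd276: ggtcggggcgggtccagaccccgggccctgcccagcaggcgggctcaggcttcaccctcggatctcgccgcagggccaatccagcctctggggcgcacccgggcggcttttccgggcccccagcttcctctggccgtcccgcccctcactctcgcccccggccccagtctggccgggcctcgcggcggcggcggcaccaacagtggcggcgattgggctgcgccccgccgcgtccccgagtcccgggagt

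In the printed Zap70 window, CTTTGA lies 21 bases before the start. RefSeq lists 3 starts of Zap70, and this core was not found before the others. The window at chr1:36764265-36764514 holds GGAAGT 202 bases before its start. The Blnk window holds GGAAGT 201 bases before the start. Neither core was found in the printed windows of Syk and Cd276, which hold 27 and 29 CpG dinucleotides, whereas those of Zap70 and Blnk hold 6 each and the median of 32851 mouse windows was 6. Over the 14 windows of the 9 genes, 4 (28.6%) held the TCF/LEF core and 7 (50.0%) the ETS core, against 13.8% and 19.7% of all windows, and no 2 matches overlapped in those printed. The TCF/LEF core lay in windows of Zap70, Syk, Ptprc and Lcp2, and not in those of Blnk and Cd276. Of these 4 genes with the core, Zap70 was higher in adenoma than in MIN, Syk was lower, and Ptprc and Lcp2 were at or near the floor. Whether a motif goes with the levels was not tested. The 2 Ptprc windows overlap, and 1 ETS match lies in both of them. A second start of Syk has CTTTGA 13 bases before it, and Lck has GGAAGT 9 bases before its outer start. A match is a description of these letters and not a binding site, and gene-level counts do not show which start was in use.

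Zap70 went from no counts to moderate expression. It had 0 counts in each of the 3 MIN libraries, and 229, 341 and 648 counts in adenoma replicates 1, 2 and 3, or 6.43, 9.53 and 18.7 CPM (mean 11.6 ± 6.40, SD, n = 3). After sulindac 6, 11 and 15 counts were left, or 0.20, 0.336 and 0.436 CPM (mean 0.324 ± 0.119, SD, n = 3). No groups overlapped, and adenoma replicate 3 stood above the other adenoma libraries. Against the floor of 3 counts per MIN library, the adenoma mean was at least 158.5-fold higher, and at least 109.4-fold without adenoma replicate 3. The log2 fold change from adenoma to sulindac was -5.11 (standard error 0.48), a 34.5-fold fall, and -4.59 without that replicate. The treated organoids still lay above MIN, by at least 4.45-fold. None of the 50-base stretches of Zap70 transcripts in GENCODE M21 occurs in another gene, its paralog Syk included.

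Syk, the other kinase of the family, showed the opposite between MIN and adenoma. MIN replicates held 764, 791 and 487 counts, or 18.6, 16.9 and 13.3 CPM (mean 16.25 ± 2.72, SD, n = 3). Adenoma held 1, 2 and 0 counts, and the sulindac libraries 0, 0 and 0. The adenoma libraries together had 3 counts, so the level in CPM was lower by a factor of 579.0 with an exact 95% counting interval of 197.8 to 2810. After sulindac it was at least 174.8-fold lower than in MIN. Zap70 was lower after sulindac than before, and Syk stayed at 0 counts there. Syk transcripts share no such stretch with another gene either. Thus 1 of the pair was detected at over 3 counts in MIN (Syk) and the other in adenoma (Zap70), with no library holding both above 3 counts.

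Lck, which acts upstream of both kinases, fell stepwise. It had 163, 154 and 91 counts in MIN, 50, 51 and 39 in adenoma and 15, 14 and 12 after sulindac. The mean levels were 3.25 ± 0.745, 1.32 ± 0.166 and 0.426 ± 0.0755 CPM (SD, n = 3 each), and no groups overlapped. Its log2 fold change was -1.30 (standard error 0.27) from MIN to adenoma and -1.62 (standard error 0.30) from adenoma to sulindac. With a single library left out, Lck was no longer among the genes past an FDR of 1% in 5 of 6 cases in each contrast. The exceptions were MIN replicate 3 and adenoma replicate 3. Both contrasts chose the gene, so nothing is read from these calls. Its log2 fold changes stayed between -1.46 and -1.14 and between -1.75 and -1.50.

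Blnk, the scaffold that Syk phosphorylates in B cells, was the most abundant of the 9 per length in all groups. MIN libraries had 39.3, 46.0 and 49.4 CPM (1613, 2151 and 1814 counts), adenoma 134.2, 132.8 and 143.3 CPM (4779, 4753 and 4957 counts) and sulindac 49.9, 61.2 and 55.2 CPM (1496, 2000 and 1897 counts). Every adenoma library exceeded every other library more than 2-fold. Means were 44.9 ± 5.17, 136.8 ± 5.71 and 55.4 ± 5.64 CPM (SD, n = 3 each). The log2 fold change was 1.61 (standard error 0.12) from MIN to adenoma and -1.30 (standard error 0.10) from adenoma to sulindac. Between sulindac and MIN it was 0.30 (standard error 0.11), where the lowest treated library lay just above the highest MIN library. On the linear scale this last difference was 1.23-fold.

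The T cell scaffolds were at or near the floor. Lat had 7, 2 and 2 counts in MIN, 1, 3 and 3 in adenoma and 2, 2 and 4 after sulindac, so its groups overlapped, and 2 of 9 libraries exceeded 3 counts. Lcp2 had 0 counts in all 9 libraries. Each library of 0 allows a level of up to 3 counts, and at this depth neither gene can be compared between groups. In adenoma neither scaffold exceeded 3 counts in a library.

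Cd276 had a profile like that of Blnk. Counts were 893, 1074 and 803 in MIN, 1950, 2108 and 1647 in adenoma and 873, 1049 and 868 after sulindac. The levels in CPM were 21.7, 23.0 and 21.9 for MIN, 54.8, 58.9 and 47.6 for adenoma, and 29.1, 32.1 and 25.3 after sulindac. Neither MIN nor sulindac libraries reached the adenoma range, and the sulindac libraries all lay above MIN. Means were 22.2 ± 0.668, 53.8 ± 5.71 and 28.8 ± 3.42 CPM (SD, n = 3 each). Its log2 fold changes were 1.28 (standard error 0.12) for adenoma over MIN, -0.90 (standard error 0.13) for sulindac over adenoma and 0.37 (standard error 0.11) for sulindac over MIN. On the opposite strand, Gm10657 covers 11.4% of the exon bases of Cd276, and the strand setting of the counting is not given in the sources used here, so reads of this overlap cannot be assigned.

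Levels of different genes can be compared per length. Divided by the kilobases of exon sequence in GENCODE M21, the adenoma means were 22.8 ± 0.953 CPM per kb for Blnk, 14.7 ± 1.56 for Cd276, 3.87 ± 2.14 for Zap70 and 0.450 ± 0.0567 for Lck (SD, n = 3 each). Of the 13172 genes with a length, 84.4% lay below Blnk in adenoma, 75.4% below Cd276, 41.5% below Zap70 and 16.4% below Lck. The ranges of the 3 adenoma libraries did not overlap between any neighbours in this order. In MIN the order was Blnk (7.49 CPM per kb), Cd276 (6.07), Syk (1.74) and Lck (1.11), and the levels of Zap70 were 0. There 28.3% of the genes lay below Syk. After sulindac Blnk (9.25) and Cd276 (7.88) still led, and Lck (0.145) and Zap70 (0.108) were close together, within their SDs of 0.0258 and 0.0397.

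Leukocyte RNA was checked with Ptprc, Cd3e and marker lists. Ptprc had 0, 1 and 0 counts in MIN, 8, 4 and 4 in adenoma and 0 in each sulindac library. Its adenoma to MIN ratio of 18.8 carries a 95% counting interval of 2.92 to 788.8. Cd3e had 0, 0 and 1, then 2, 2 and 1, then 2, 1 and 2 counts, at or under the floor throughout. In adenoma the 3 libraries together held 1218 counts of Zap70 for 16 of Ptprc and 5 of Cd3e, which is 76.1 Zap70 counts per Ptprc count, and 28.6, 85.2 and 162.0 in replicates 1, 2 and 3. The ratio was lowest in replicate 1, which had the most Ptprc counts and the fewest Zap70 counts. A higher Ptprc count lowers this ratio by construction, so nothing is read from its order.

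Some leukocyte markers did move with Zap70. Of 11 pan-leukocyte markers, 4 exceeded 3 counts in an adenoma library (Cd53, Rac2, Vav1 and Cd37), and the summed level ran from 1.99 to 3.24 CPM in MIN, 7.72 to 14.7 in adenoma and 4.47 to 5.35 after sulindac. Vav1, a guanine nucleotide exchange factor, had 46, 26 and 62 counts in MIN, 128, 209 and 257 in adenoma and 47, 62 and 70 after sulindac. Cd37, a tetraspanin, had 11, 15 and 16, then 109, 141 and 199, then 47, 52 and 56 counts. Other members of the list did not follow. Rac2 had means of 0.892 CPM in MIN, 0.985 in adenoma and 1.31 after sulindac, so it was highest after sulindac. Laptm5 went from 2, 5 and 3 counts in MIN to 0, 1 and 0 in adenoma. Of 11 myeloid markers the sum was 1.73 to 2.81 CPM in MIN, 8.27 to 16.8 in adenoma and 3.33 to 4.87 after sulindac, carried by the lysosomal glycoprotein gene Cd68 with 284 to 560 counts in adenoma, while Tyrobp and Emr1 (Adgre1), which mark macrophages, were at 0 in all 9 libraries. Lyz2, also on the myeloid list, moved the other way, from 17, 23 and 13 counts in MIN to 0, 1 and 0 in adenoma. The 11 T cell markers summed to 0.748 to 1.28 CPM in MIN, 0.615 to 1.01 in adenoma and 0.433 to 0.931 after sulindac. For the 7 B cell markers the sums were 1.85 to 2.40, 1.35 to 2.01 and 0.70 to 0.96 CPM, and for the 7 natural killer cell markers 0.191 to 0.316, 0.26 to 0.337 and 0 to 0.175 CPM. All 3 sums overlapped between MIN and adenoma, while the B and natural killer cell sums were lower after sulindac than in adenoma without overlap, the direction that Zap70 took. The part of leukocyte RNA in these values was not tested.

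**Figure D2:**
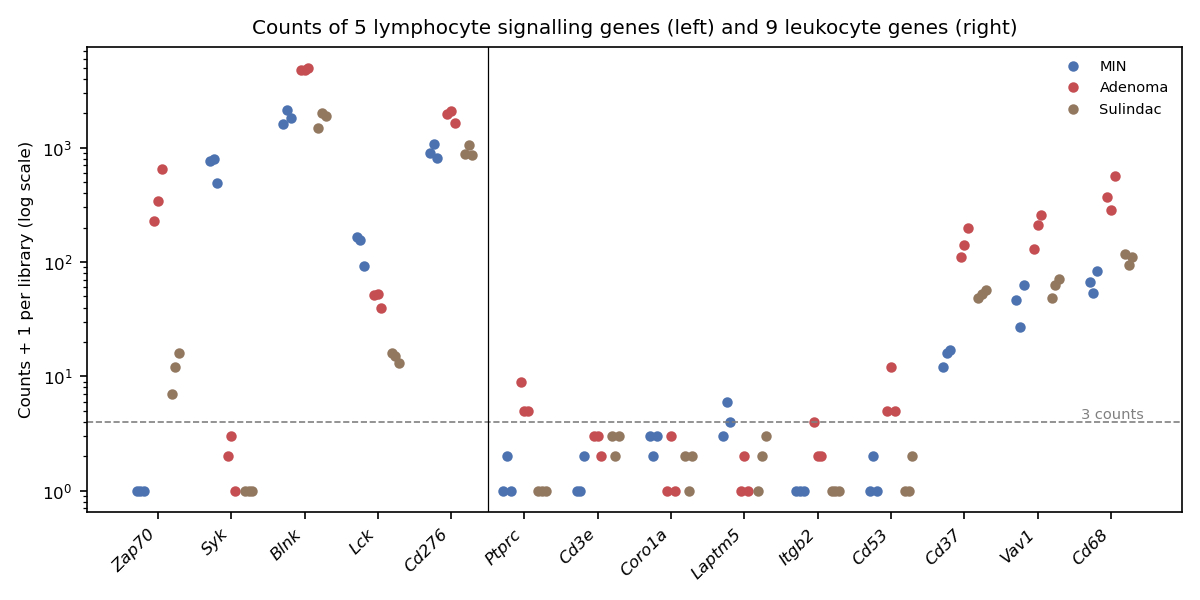
Counts plus 1 per library (log axis) of 5 lymphocyte signalling genes left of the line and of 9 leukocyte genes right of it, coloured by group, with the dashed line at 3 counts. In adenoma Zap70 reaches 229 to 648 counts while Ptprc stays at 4 to 8 and Cd3e at 1 to 2, and Cd37, Vav1 and Cd68 are also highest there.

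The other genes of antigen receptor signalling, 85 in all, were listed by their role and not by how they moved, though with earlier results of these libraries known. Of these, 17 had at most 3 counts in every library. Between adenoma and MIN 55 were tested, of which 11 (20.0%) were higher and 12 (21.8%) lower at an FDR of 1% over all genes. These shares are near the 18.5% and 20.1% of all genes, and the median log2 fold change was -0.15 against -0.01 for all genes. With each library left out in turn the higher count ran from 7 (without MIN replicate 2) to 12 and the lower from 10 to 12, and with a 2-fold minimum 5 were higher. Adjusted p-values below come from the quasi-likelihood test of edgeR, adjusted by Benjamini-Hochberg over all genes tested. Genes nearly absent from a group passed the low-count filter through the other group, so for them a difference was favoured by the filter. Between adenoma and MIN they include Fgr, Vav3, Ptpn22, Nfatc4, Cd80, Pdcd1lg2, Btnl1, Btnl4, Btnl6 and Dclk1. Between sulindac-treated and untreated adenoma they include Grap and Cd79b.

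Between MIN and adenoma, receptor chains and Src family kinases did not accompany Zap70. Of 11 receptor and co-receptor chains 3 were tested in this comparison and 0 were called in either direction at an FDR of 1%. After sulindac 1 of 3 tested, Cd79b, was lower than in untreated adenoma, against 9.10% of all genes, and Zap70 was lower there too. Of 8 Src family kinases other than Lck 6 were tested, and 4 fell in adenoma (Fgr, Fyn, Frk and Lyn), against 20.1% of all genes. Lyn, with a log2 fold change of -0.62 (edgeR adjusted p = 0.00603), lost its call under 6 of 15 alternatives, among them library size alone and the removal of MIN replicate 1 or 2 or adenoma replicate 2 or 3 (edgeR adjusted p up to 0.0288). Fgr, a kinase of myeloid cells, had 87, 80 and 48 counts in MIN and 0 in every adenoma and sulindac library (edgeR adjusted p = 8.49e-05). Fyn had 5.28 ± 2.05 CPM in MIN and 1.51 ± 0.688 in adenoma (SD, n = 3 each; log2 fold change -1.80, edgeR adjusted p = 0.005), and missed the threshold without MIN replicate 1, adenoma replicate 1 or adenoma replicate 3 (adjusted p up to 0.0176 in edgeR). Src and Yes1, the broadly expressed members, were present at 79.2 ± 2.52 and 68.8 ± 9.69 CPM (SD, n = 3 each) in adenoma. Of the 5 Tec family kinases only Tec passed the filter, and it did not pass the test.

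Adaptors and effectors moved in both directions. Grap, a Grb2-like adaptor of lymphocytes, rose from 14, 23 and 8 counts in MIN to 77, 111 and 140 in adenoma (log2 fold change 3.12, standard error 0.39, edgeR adjusted p = 0.00019). Vav1 rose by 2.34 (standard error 0.43, edgeR adjusted p = 0.00173), whereas its paralog Vav3 went from 1628, 1831 and 1920 counts to 1, 0 and 0 (edgeR adjusted p = 1.02e-07). Vav2, the remaining Vav gene, had 32.8 ± 4.24 CPM in MIN and 29.2 ± 4.2 in adenoma (SD, n = 3 each; edgeR adjusted p = 0.373). Malt1, a paracaspase of the NF-kB branch, rose by 0.91 (edgeR adjusted p = 0.000162). Dapp1, an adaptor of B cells that binds phosphoinositides, fell by 1.97 (edgeR adjusted p = 6.06e-06). Ptpn22, the phosphatase that restrains Lck and Zap70, went from 140, 114 and 201 counts to 0, 2 and 0 (edgeR adjusted p = 4.03e-05). Matk, a Csk-like kinase, fell by 1.81 (edgeR adjusted p = 0.00135).

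In the calcium and NFAT branch 3 of 13 genes tested (23.1%) were higher and 0 lower, against 18.5% and 20.1% of all genes, so the higher share was near that of all genes. Nfatc4, a transcription factor activated by calcineurin, rose from 5, 2 and 5 counts to 65, 74 and 78 (log2 fold change 4.35, standard error 0.40, edgeR adjusted p = 3.37e-05). Ppp3cc, a catalytic subunit of calcineurin, rose from 4.69 ± 0.665 to 12.6 ± 0.738 CPM (SD, n = 3 each; log2 fold change 1.43, edgeR adjusted p = 0.000153). Itpr2, a calcium release channel, rose from 14.9 ± 2.59 to 36.4 ± 9.53 CPM (SD, n = 3 each; log2 fold change 1.30, edgeR adjusted p = 0.000776).

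After sulindac 50 of the listed genes were tested against untreated adenoma, of which 5 were higher, 6 lower and 39 did not pass, against 8.32% higher and 9.10% lower among all genes. Grap fell the most of the 6, to 2, 3 and 3 counts, under its MIN counts (log2 fold change -5.17, standard error 0.40, edgeR adjusted p = 0.00014). Vav1 fell by 1.60 (edgeR adjusted p = 0.00371). Cd79b, a chain of the B cell receptor, went from 23, 44 and 33 counts to 4, 2 and 3 (log2 fold change -3.29, edgeR adjusted p = 0.0014). Pik3ap1, an adaptor that recruits phosphoinositide 3-kinase, fell by 2.72 (edgeR adjusted p = 0.00374), and Ubash3b, a phosphatase that acts on Zap70 and Syk, fell by 1.86 (edgeR adjusted p = 0.00416).

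Among the 5 that rose after sulindac, Pag1 and Dapp1 had fallen in adenoma. Pag1, the membrane anchor of Csk, had 22.1 ± 2.18 CPM in MIN, 7.25 ± 2.36 in adenoma and 21.4 ± 2.41 after sulindac (SD, n = 3 each; edgeR adjusted p = 0.000399 for adenoma over MIN and 0.00156 for sulindac over adenoma). Dapp1 was at 28.0 ± 0.722, 7.16 ± 0.848 and 16.4 ± 1.12 CPM (SD, n = 3 each), and its log2 change was 1.20 after sulindac (edgeR adjusted p = 0.000593). Nck2, Orai1 and Ppp3cc rose by 0.56, 0.59 and 0.51 (edgeR adjusted p = 0.00263, 0.00643 and 0.00842). These 3 calls were lost under 5, 8 and 9 of 15 alternatives, each time including the removal of any 1 sulindac library, and for Orai1 and Ppp3cc also of adenoma replicate 1 or 2 and with the replicate block (edgeR adjusted p up to 0.0147, 0.0273 and 0.0379). Without sulindac replicate 1, 2 or 3 the higher count was 2 each time, and the lower count was 3 without sulindac replicate 1 and 1 without sulindac replicate 3. Vav1, Cd79b, Pik3ap1 and Ubash3b each missed the threshold without sulindac replicate 3, and their edgeR adjusted p reached at most 0.0248 over the alternatives. Vav1 and Ubash3b also missed it without sulindac replicate 1 or 2 or adenoma replicate 2, and Ubash3b without adenoma replicate 1 too. Pik3ap1 also missed it without sulindac replicate 1.

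**Figure D3:**
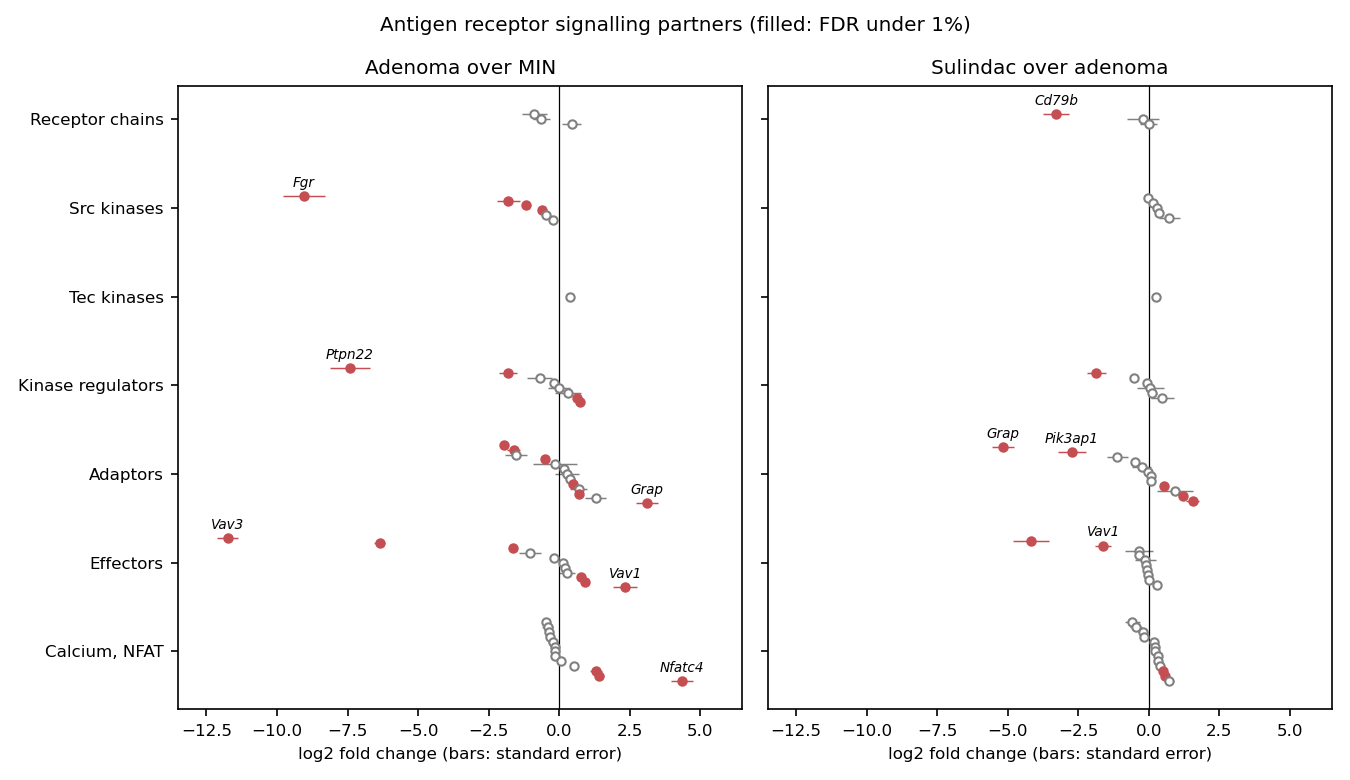
Log2 fold change of the tested antigen receptor signalling genes by role, for adenoma over MIN (left) and sulindac over adenoma (right). Each point is a gene, bars are standard errors, filled points passed an FDR of 1%, and fitted values of genes at or near 0 counts in a group (Vav3, Fgr, Ptpn22) depend on the prior count. On the left 11 filled points lie above 0 and 12 below, on the right 5 and 6.

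The B7 family, to which Cd276 belongs, was listed with its butyrophilin-like relatives and with receptors of these ligands. Of 17 listed genes other than Cd276, 7 had at most 3 counts everywhere. Of the 10 tested between adenoma and MIN, 4 were higher and 5 lower at an FDR of 1%, against 18.5% higher and 20.1% lower over all genes. The median log2 fold change was -1.17, against -0.01 over all genes. Cd80, a costimulatory ligand of CD28 and CTLA4, rose from 4, 1 and 0 counts to 44, 71 and 57 (log2 fold change 5.23, standard error 0.62, edgeR adjusted p = 0.00014), and its log2 fold change was 6.73 without MIN replicate 1. Vtcn1, which encodes the inhibitory ligand B7-H4, rose from 0.484 ± 0.151 to 6.07 ± 1.82 CPM (SD, n = 3 each; log2 fold change 3.65, edgeR adjusted p = 3.37e-05). Cd274, the PD-L1 gene, had 60, 94 and 177 counts in MIN and 407, 727 and 650 in adenoma (log2 fold change 2.62, standard error 0.43, edgeR adjusted p = 0.00102), a change of 3.27 without MIN replicate 3. For Cd274, 12.4% of its 50-base stretches also lie in other transcripts. Pdcd1lg2, the PD-L2 gene, rose from 1, 1 and 4 to 16, 15 and 20 counts (log2 fold change 3.23, edgeR adjusted p = 0.00141), with 4.22 without MIN replicate 3. Cd86, the partner of Cd80 on antigen-presenting cells, had at most 1 count in any library.

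The 4 ligands that had risen fell after sulindac, as the Cd276 level did, and these were all the genes called of the 6 tested, against 9.10% lower and 8.32% higher over all genes. Cd80 and Pdcd1lg2 passed the low-count filter through their adenoma level, so for them a difference was favoured by the filter. Cd80 went to 7, 7 and 4 counts (log2 fold change -3.09, edgeR adjusted p = 0.000788) and Vtcn1 to 0.998 ± 0.143 CPM (SD, n = 3; log2 fold change -2.60, edgeR adjusted p = 0.000454). Cd274 went to 203, 258 and 235 counts (log2 fold change -1.23, edgeR adjusted p = 0.00349), still above its MIN counts, and missed the threshold without adenoma replicate 2 or any 1 of the sulindac libraries (adjusted p up to 0.0235, same edgeR test). Pdcd1lg2, with 3, 4 and 6 counts, was at the edge of the threshold (log2 fold change -1.82, edgeR adjusted p = 0.00981), and under 11 of 14 alternatives it missed it, with adjusted p from 0.00597 to 0.0466 in edgeR and DESeq2.

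The butyrophilin-like genes, which gut epithelium uses to shape its gamma delta T cells, were among the falls. Btnl1 went from 1775, 1806 and 928 counts in MIN to 1, 1 and 0 in adenoma, Btnl4 from 1289, 1608 and 1184 to 7, 4 and 8, and Btnl6 from 981, 1009 and 615 to 2, 3 and 1 (edgeR adjusted p = 2.98e-07, 7e-08 and 2.24e-07). After sulindac the highest of the 3 was Btnl4 with 33, 18 and 8 counts. The table's row 4632428N05Rik, an older name of the checkpoint ligand gene Vsir, fell from 252, 208 and 185 to 9, 15 and 26 counts (edgeR adjusted p = 8.67e-05).

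**Figure D4:**
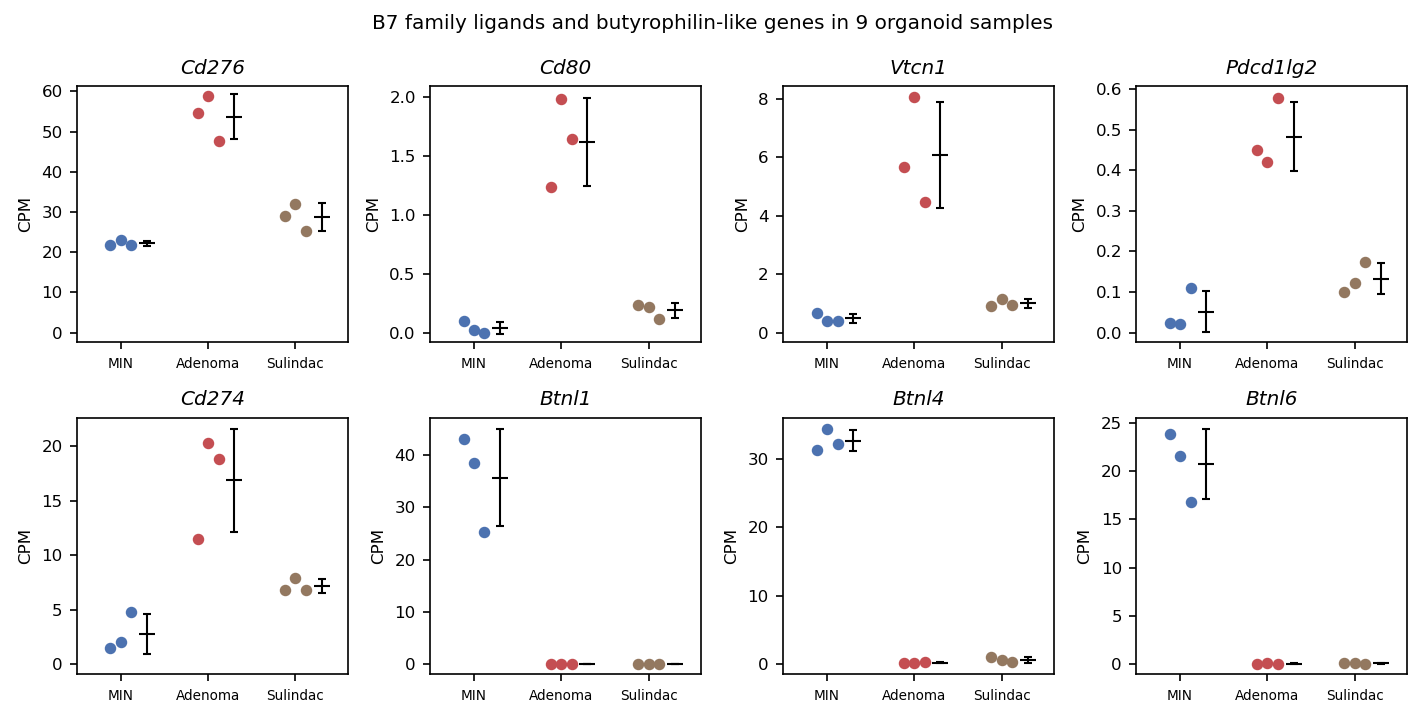
Level (CPM, linear axis, own scale per panel) of Cd276, 4 other B7 ligands and 3 butyrophilin-like genes by sample, with the mean and SD of each group of 3. The 5 ligands are highest in adenoma and lower after sulindac, while Btnl1, Btnl4 and Btnl6 are well expressed in MIN and near 0 in both other groups.

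Among 19 transcription factors of lymphocyte development, 10 were tested between adenoma and MIN, with 4 higher and 2 lower at an FDR of 1%, against 18.5% and 20.1% over all genes. Lef1, a DNA-binding partner of beta-catenin, rose from 21, 29 and 27 counts to 580, 646 and 579 (log2 fold change 4.77, standard error 0.20, edgeR adjusted p = 3.73e-07), and Tcf7, of the same family, from 23.6 ± 5.74 to 66.2 ± 3.11 CPM (SD, n = 3 each; log2 fold change 1.49, edgeR adjusted p = 0.000147). In Lef1, 13.7% of the 50-base stretches occur in other transcripts. Ikzf2 and Tcf12 rose by 2.22 and 0.88 (edgeR adjusted p = 0.00149 and 0.00134). Bcl11b, a T lineage factor, fell by 1.35 (edgeR adjusted p = 0.000172) and Tox by 0.68 (edgeR adjusted p = 0.00204, and 0.0128 without MIN replicate 2). After sulindac 3 of 10 fell and 0 rose, against 9.10% and 8.32% over all genes, namely Tcf12 (-1.07), Tcf7 (-0.62) and Tcf3 (-0.56), with edgeR adjusted p = 0.00146, 0.0021 and 0.0059. Without sulindac replicate 1 or 3 neither Tcf7 nor Tcf3 passed (edgeR adjusted p up to 0.0162 and 0.0357). Lef1 stayed at 11.3 ± 2.40 CPM after sulindac against 17.0 ± 0.915 in adenoma (SD, n = 3 each), a difference that did not pass the test.

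The genes whose profile over the 9 samples was most like that of each of the 5 expressed members were ranked by Pearson's r of log2(CPM + 0.5) among 13892 genes. With 3 groups of samples such values mainly reflect the group means and are given as a description. For Zap70 they were Zfp825 (r = 0.995), Btbd17 (r = 0.995) and Spn (r = 0.993). Spn, the leukocyte sialoglycoprotein CD43, had 0 counts in each MIN library, 13, 14 and 18 in adenoma and 2, 2 and 1 after sulindac. Blnk was most like Ttll13, Tmem106c and BC100451 (r = 0.992 to 0.993), Syk like Dner, Btnl1 and Zfp709 (r of 0.9997 or more) and Cd276 like Rsu1, Wnt5b and Ikbip (r = 0.987 to 0.991). Cdc7, a kinase of replication origins, led for Lck (r = 0.997), followed by Nelfa and Atp2c2. Between members, r was 0.98 for Zap70 and Blnk, 0.964 for Blnk and Cd276, 0.931 for Zap70 and Cd276 and 0.871 for Syk and Lck.

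Genes next to the members on their chromosomes, by the order of protein-coding genes in RefSeq on GRCm38.p6, did not all move with them. Beside Zap70, Actr1b was at 101.9 ± 5.54 CPM in MIN and 105.1 ± 3.76 in adenoma (SD, n = 3 each; edgeR adjusted p = 0.709), and Tmem131 rose by 0.55 (edgeR adjusted p = 0.00215). Around Syk, which was lost, Gadd45g and Auh rose by 1.72 and 0.65 (edgeR adjusted p = 0.00251 and 0.00297), and Nfil3 did not pass (log2 fold change -0.22, edgeR adjusted p = 0.319). Next to Blnk, which was higher in adenoma, the zinc finger gene Zfp518a fell from 19.6 ± 2.14 to 0.412 ± 0.282 CPM (SD, n = 3 each; log2 fold change -5.56, edgeR adjusted p = 1.19e-05). Hdac1 and Marcksl1 beside Lck rose in adenoma by 0.62 and 1.93 and fell after sulindac by 0.79 and 1.87 (edgeR adjusted p = 0.00137 and 0.000225, then 0.00104 and 0.000396), unlike Lck itself, which was lower in adenoma. Nptn beside Cd276 did not pass (log2 fold change 0.07, edgeR adjusted p = 0.576).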

How the data were processed

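RNA-seq was analysed from 9 mouse organoid samples in 3 groups of 3. Raw read counts per gene symbol, not normalized, were deposited by the authors. The submitters' processing notes name Bowtie2 2.2.4, RSEM and the genome build mm9, without their order, and the annotation and strand setting are not given in the sources used here. MIN replicate 1 has 2 further columns (sequencing runs) whose sum is its remaining column in all 23955 rows, and that sum was used. Dates stand in place of gene symbols in 27 rows, which were kept unnamed. Groups came from the sample titles and descriptions.

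Counts were filtered with filterByExpr, scaled by TMM and compared with edgeR 4.0.16 in R 4.3.3 (glmQLFit robust, glmQLFTest, two-sided, only the groups compared, FDR 1%). The paper's RSEM-based comparison was not rerun. The code was tested on simulated data. Standard errors are the log2 fold change over the square root of F, and intervals of count ratios are exact conditional binomial. CPM used TMM scaling over all 9 samples. The 9 members and all gene lists were chosen with earlier results of these data known. Named genes were, per comparison, those past the FDR without overlap between groups, with the largest changes in each list (6 partners, 4 B7 genes and 4 transcription factors a direction). An item of the lists is not reported here. The other Src family kinases, Cd86, and the genes of marker and neighbour lists stand outside this rule and were named after their values were seen. Sequence sharing and exon lengths came from GENCODE M21, promoter windows from RefSeq (GRCm38.p6), whose build differs from mm9, so no coordinates were combined with the counts. Alternatives were RLE factors, library size alone, other filters, a joint fit, a replicate block, leaving out each library, DESeq2 1.42.0, an FDR of 5%, a 2-fold minimum, and for profile likeness Spearman's rank correlation and a pseudocount of 2.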

Additional observations from a re-analysis of the deposited data

How the results depend on the processing

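Of 319 values computed under alternatives for the main results, 279 stayed within their limits and 40 moved, with 0 reversed. The limits were a factor of 1.5 for counts of genes and the pooled SD within groups for a member. Counts of genes, bounds and count ratios could not reverse by construction. Only fitted log2 fold changes of the members could, and the members were chosen from these same libraries. The totals are therefore a description. With library size alone, the median log2 change over all genes shifted from -0.01 to 0.12 (adenoma over MIN) and from -0.01 to -0.18 (sulindac over adenoma), the higher share of called genes after sulindac went from 47.8% to 23.3% (603 higher, 1983 lower), Blnk to 1.74 and -1.46, Cd276 to 1.42 and -1.07, and partner genes higher after sulindac to 2. An FDR of 5% gave 2034 higher and 2374 lower genes after sulindac and 9 and 10 partners. A 2-fold minimum gave 365 and 703 genes, 2 partners higher after sulindac, 5 partners higher in adenoma, and 1501 higher and 2104 lower genes between sulindac and MIN. DESeq2 gave 1778 higher genes and 8 higher partners after sulindac, and a minimum of 10 counts in every sample gave 2 lower partners.

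With each library left out, partners higher in adenoma ran from 7 to 12, genes higher after sulindac from 423 to 1403 and lower from 386 to 1488, partners higher after sulindac from 2 to 5 and lower from 1 to 7. The lowest values came without sulindac replicate 3, which gave 423 and 386, and counts were also reduced over 1.5 times without adenoma replicate 2 (576 and 622), sulindac replicate 1 (489 and 492) or sulindac replicate 2 (608 and 631). The Zap70 bound over MIN ran from 109.4 to 193.7, its sulindac log2 fold change from -5.39 to -4.59, and the Syk ratio from 390.0 (without adenoma replicate 3) to 1150 (without adenoma replicate 2). Of 56 calls of list genes, 33 held under every alternative in which the gene was tested, 15 of them without the minimum of 10 counts in every sample, which they do not pass.

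Same-numbered samples deviated together with correlations of 0.104, 0.0818 and 0.184 in adenoma and MIN, and 0.212, 0.2 and -0.0162 in sulindac and adenoma. In sulindac and MIN the correlations were -0.0399, 0.3 and 0.182. What same-numbered samples have in common is not given in the labels and was not tested. In adenoma and MIN every sample correlated best with its own number, and in sulindac and adenoma this did not hold. With the replicate block, 2531 genes were higher and 2733 lower in adenoma, 872 higher and 1061 lower after sulindac, and 3 partners were higher after sulindac, without Orai1 and Ppp3cc. Genes at or near the floor of 3 counts in both groups of a comparison, including Lat, Lcp2 and Cd3e, cannot be compared at this depth.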

Other observations

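Tuft cells, chemosensory epithelial cells that share several signalling genes with leukocytes, were examined through 13 markers. Their summed level was 14.6 to 22.5 CPM in MIN, 10.8 to 14.7 in adenoma and 10.5 to 19.4 after sulindac. Avil alone made up 6.10, 7.06 and 16.0 CPM of the sum after sulindac, and the list includes Ptprc. The defining kinase-like gene Dclk1 had 76, 112 and 188 counts in MIN, 7, 8 and 1 in adenoma and 1, 1 and 0 after sulindac, and fell by 4.34 on the log2 scale in adenoma (edgeR's quasi-likelihood test, adjusted p = 0.000433). The tuft cell factor Pou2f3 fell by 2.87 (edgeR adjusted p = 6.94e-05), and the leukotriene synthase gene Ltc4s and the actin-binding gene Avil rose by 1.95 and 1.16 (edgeR adjusted p = 0.00373 and 0.00563). Of the 8 tested, 2 rose and 3 fell in adenoma, against 18.5% higher and 20.1% lower over all genes.

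Stromal and endothelial markers, 8 in all, summed to at most 1.04 CPM in any library, and mast cell and platelet markers, also 8, to at most 1.91 CPM. The part of these cell types in the levels of Zap70, Blnk and Cd276 was not tested.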
